A study of Mus musculus with 8 samples.

Results

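Chemokines are small secreted proteins that direct leukocyte movement, and they were taken here together with their receptors by gene symbol: the Ccl, Cxcl, Ccr and Cxcr genes with a number, plus Cx3cl1, Cx3cr1, Xcl1, Xcr1 and Ackr1 to Ackr4. The rule selected 60 of 48587 gene symbols, of which 38 encode ligands and 22 encode receptors. The study measured RNA of the whole mouse aortic tree by poly-A enriched, stranded sequencing. It held 4 groups of 2 libraries: mice with deletion of Tet2 in vascular smooth muscle cells given VitD (Tet2KO_VitD), the same genotype given vehicle (Tet2KO_vehicle), WT litter controls given VitD (WT_VitD) and WT litter controls given vehicle (WT_vehicle). The sources used here name no Cre driver, strain, age, VitD dose or treatment time, and do not say how many mice stand behind a library. The p-values thus reflect the variation among these 8 libraries, which could be technical. Values are TMM-normalised CPM (read counts scaled to library size), and a gene was called at an adjusted p under 0.05 in edgeR's quasi-likelihood test over all 16194 genes tested.

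Chemokine ligands are displayed on vessel walls and bind G protein-coupled receptors on leukocytes, which then adhere and migrate towards the source. Inflammatory ligands are switched on by cytokines in endothelium, smooth muscle, fibroblasts and macrophages, whereas homeostatic ligands guide lymphocytes and progenitors at rest. Atypical receptors bind chemokines without the usual G protein signal and remove or transport them. In the injured artery the axes of Ccl2 with Ccr2, of Cx3cl1 with Cx3cr1 and of Cxcl12 with Cxcr4 are known for drawing in monocytes and progenitor cells.

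Total counts ran from 15679274 to 22332149 per library. Tet2 itself was 26.6 and 37.6 CPM in Tet2KO_VitD against 18.3 and 20.0 CPM in WT_VitD, and 42.0 and 35.2 CPM in Tet2KO_vehicle against 35.8 and 32.2 CPM in WT_vehicle, so the counts of the targeted gene do not show the deletion in these whole-tissue libraries. The 5 smooth muscle markers summed to 19713 and 27338 CPM in Tet2KO_VitD against 29017 and 27016 CPM in Tet2KO_vehicle, and to 21937 and 14711 CPM in WT_VitD against 28270 and 29135 CPM in WT_vehicle, where 2 of them fell. Markers of tissue around the aorta also moved with VitD in WT. All 4 skeletal muscle markers rose there, summing to 6.58 and 10.95 CPM in Tet2KO_VitD against 11.1 and 6.64 CPM in Tet2KO_vehicle, and to 38.0 and 267 CPM in WT_VitD against 12.6 and 12.2 CPM in WT_vehicle. Of 4 mesothelial markers 3 rose in WT, and they summed to 45.6 and 39.2 CPM in Tet2KO_VitD against 24.4 and 98.3 CPM in Tet2KO_vehicle, and to 79.1 and 170 CPM in WT_VitD against 28.8 and 27.3 CPM in WT_vehicle. DESeq2 called 4 skeletal muscle and 4 mesothelial markers in WT, and limma voom called 1 of each list. The 3 Schwann cell markers went the other way in WT, at a median log2 of -2.14. Of these, edgeR called 0, while DESeq2 and limma voom each called 3. The 4 adipocyte markers had a median log2 of -0.70 in WT, with 0 called by edgeR or limma voom and 1 by DESeq2. The part of these tissues in the chemokine values was not tested. The labels number the libraries in 2 separate ranges, a higher one for both WT_VitD libraries and Tet2KO_VitD replicate 1 and a lower one for the other 5, without calling these batches. In WT mice the number range and VitD cannot be told apart. The range is also unbalanced between the genotypes under VitD, and so in the interaction, because Tet2KO_VitD replicate 2 is in the lower range. The share of counts from ribosomal protein genes was 4.85% to 5.51% in those 3 libraries and 2.10% to 2.57% in the other 5; its part in the results was not tested.

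Of the 60 genes, 46 passed the filter on low counts, 11 had counts below it and 3 (Ccl20, Ccl21b and Ccl27b) had no count in any library. The 11 low genes were Ccl1, Ccl26, Ccr4, Ccr6, Ccr8, Cxcl11, Cxcl15, Cxcl17, Cxcr1, Xcl1 and Xcr1, with 1 to 60 counts in all 8 libraries together. All 60 genes together took 0.155% and 0.124% of counts in Tet2KO_VitD against 0.0703% and 0.0651% in Tet2KO_vehicle, and 0.176% and 0.255% in WT_VitD against 0.0515% and 0.0518% in WT_vehicle. Chemokine and receptor RNA thus made up a larger share of each VitD library than of any vehicle library.

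**Figure D1:**
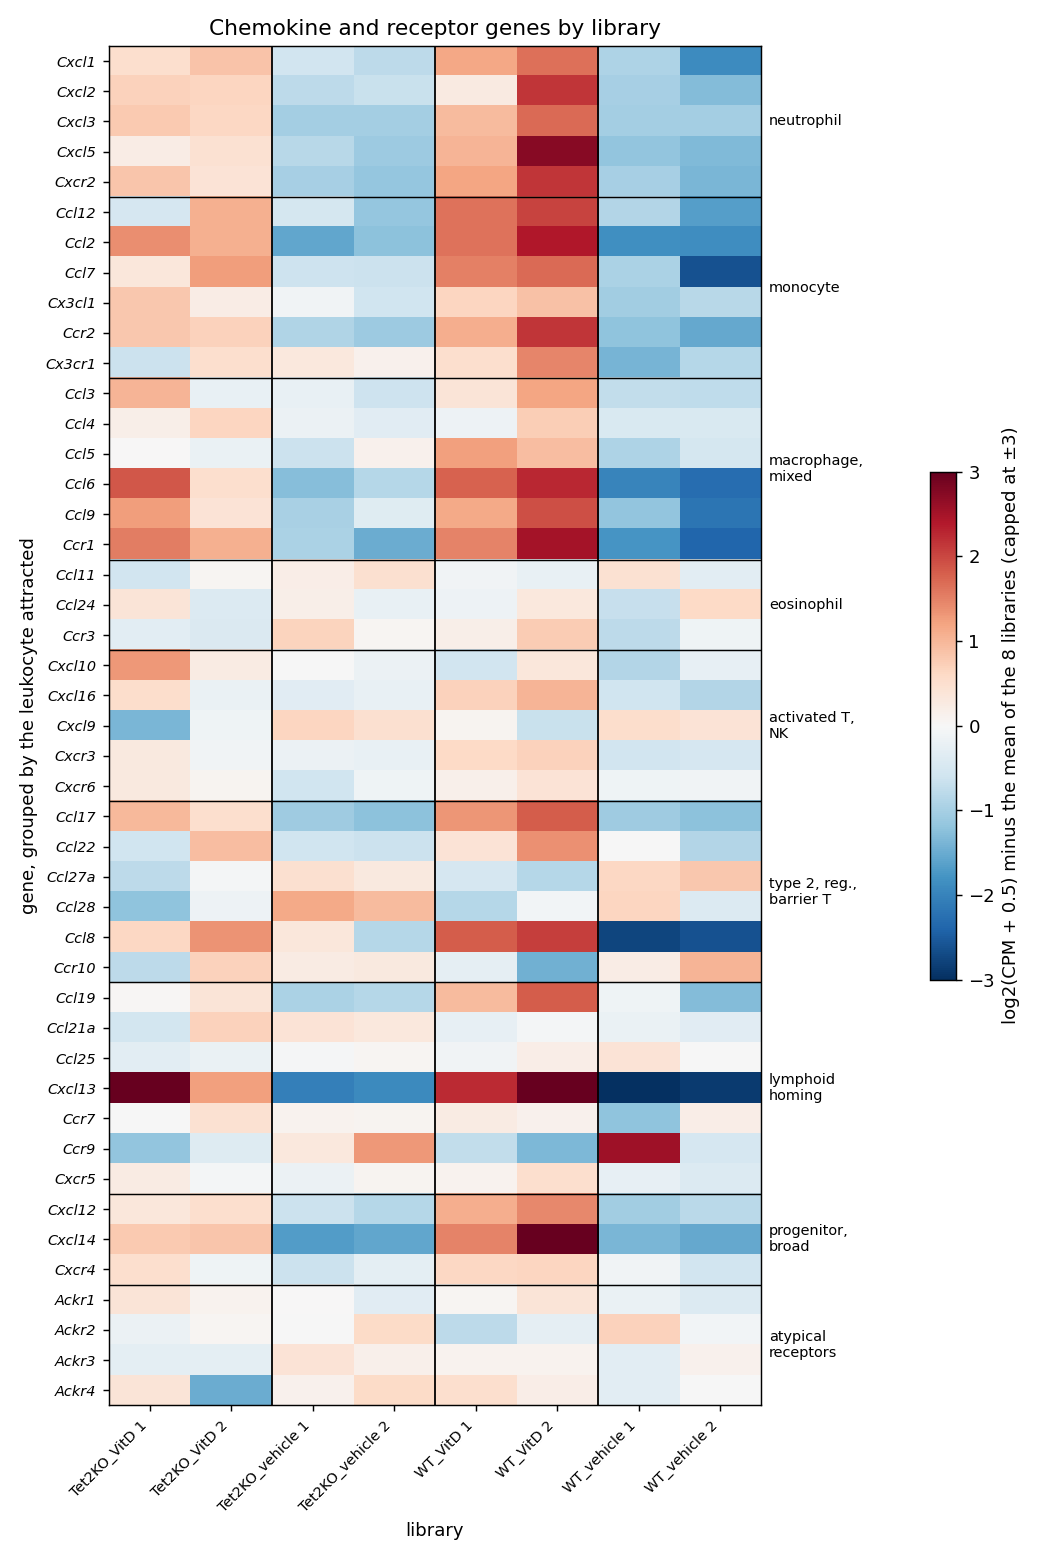
Heat map of 45 of the 46 tested chemokine and receptor genes, 1 row per gene and 1 column per library, coloured by log2(CPM + 0.5) minus the gene's mean over the 8 libraries and capped at ±3. The 4 VitD columns are high across most neutrophil, monocyte and macrophage ligands and their receptors, while Ccl27a and Cxcl9 are lower in all 4 VitD columns than in the 4 vehicle columns.

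VitD was accompanied by higher chemokine RNA in WT aortas. Of the 46 tested genes, 25 rose in WT_VitD against WT_vehicle and 1, Ccl27a, fell, which makes 26 called genes (56.5%) beside 20.1% of all genes tested. All genes were split about evenly, 10.6% higher and 9.47% lower. The median log2 difference was 2.22 over the 46 chemokine and receptor genes and -0.03 over all genes. With the number range of the libraries added to the model, 6 of the 46 genes were called, beside 0.358% of all genes, and all 6 were higher: Ccl2, Ccl6, Ccl8, Ccl12, Cxcl12 and Cxcl13. That term is estimated only from the difference between Tet2KO_VitD replicates 1 and 2, the 1 group with a library in each range, so these calls do not separate VitD from the range in WT. The number called also fell to 13 without WT_vehicle replicate 1, beside 1.33% of all genes, to 14 without WT_vehicle replicate 2, beside 3.53%, and to 9 without WT_VitD replicate 2, beside 0.828%. Each of the 8 libraries was left out in turn. Ccl2, Ccl6, Ccl8, Ccl9, Ccr1, Ccr2, Cxcl12 and Cxcl14 then kept log2 differences from 2.02 (Cxcl12) to 5.14 (Ccl8). These genes were picked because they were called in every such run. The matching share of all genes was not taken, so this is not shown to be particular to chemokines.

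In Tet2KO aortas 2 of the 46 genes rose with VitD, Ccl2 and Cxcl13 (4.35%), beside 0.198% of all genes tested, or 0.179% counting higher genes alone. A gene called in WT and not in Tet2KO is not shown to respond differently, and the test of that difference is given with the genotype comparisons. The median log2 difference was 1.01 over the 46 genes and -0.01 over all genes. Both Tet2KO_VitD libraries were above both Tet2KO_vehicle libraries for 28 of the 46 genes, beside 23.7% of all genes, and below them for 8, beside 22.2%. Of the 25 genes that rose in WT, 24 had a positive difference in Tet2KO, beside 49.5% of all genes tested. Of the same 25 genes, 22 were higher in Tet2KO_VitD without overlap with Tet2KO_vehicle, beside the 23.7% above. The 25 were picked by their call in WT. The matching shares among all genes that rose in WT were not taken, so neither count is shown to be particular to chemokines. With 1 library left out, the log2 difference in Tet2KO ran from 2.81 to 3.25 for Ccl2 and from 3.43 to 5.56 for Cxcl13. Fewer of all genes were called when any library but Tet2KO_VitD replicate 2 was left out. The count of 2 among the 46 genes was sensitive to single libraries. It fell without Tet2KO_VitD replicate 1, either Tet2KO_vehicle library or either WT_vehicle library, and rose without either WT_VitD library. Without Tet2KO_VitD replicate 2 it was 17, of which 13 were higher and 4 (Ccl21a, Ccl27a, Ccl28 and Cxcl9) lower, beside 11.2% of all genes. DESeq2 called 15, of which 14 were higher and 1 (Ccl28) lower, beside 1.65% of all genes, and limma voom called 0, beside 0.0494%.

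**Figure D2:**
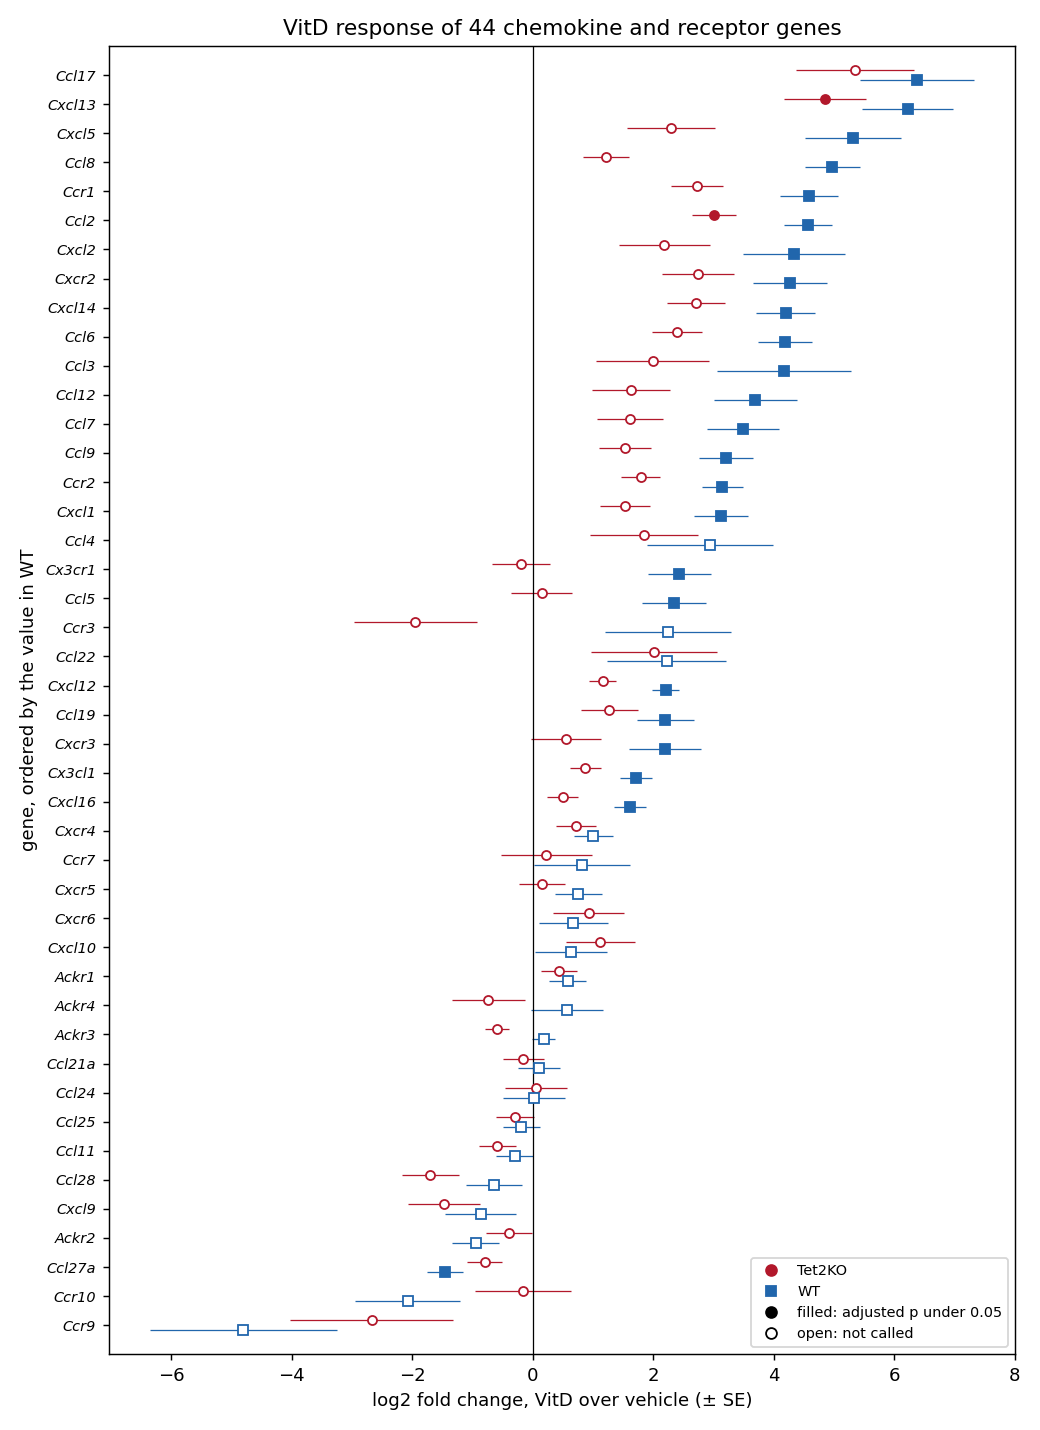
Log2 fold change of VitD over vehicle for 44 of the 46 tested genes, with standard errors, in Tet2KO (circles) and WT (squares); filled symbols were called. Cxcl3, which had no count in any vehicle library, is among those left out. Of the 44 genes, 31 lie right of 0 in Tet2KO and 36 in WT.

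Neutrophil chemokines bind Cxcr2 on neutrophils and bring them to sites of acute inflammation. Their 4 tested genes, Cxcl1, Cxcl2, Cxcl3 and Cxcl5, all rose in WT_VitD against WT_vehicle, with a median log2 difference of 4.83, or 4.47 with Cxcl3 at its lower bound. Cxcl15, which had 13 counts in all, was not tested. The 5 genes lie in 1 stretch of chromosome 5 (chr5:90759360-90905938, GENCODE M21, mm10). The stretch before the start site of Cxcl1, Cxcl2 and Cxcl3 is shown because these neighbours rose together and each holds the letters GGG, any 2 bases and TTTCC, the binding motif of NF-kB, a cytokine-activated transcription factor. The sequences are the 120 bases before each start site from RefSeq (GRCm38.p6), 5′ to 3′ on the plus strand, with each match on either strand in capitals: chr5:90891125-90891244 for Cxcl1, chr5:90903779-90903898 for Cxcl2 and chr5:90785981-90786100 for Cxcl3.
Cxcl1: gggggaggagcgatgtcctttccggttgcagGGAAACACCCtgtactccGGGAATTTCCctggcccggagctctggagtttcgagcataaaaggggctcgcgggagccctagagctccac
Cxcl2: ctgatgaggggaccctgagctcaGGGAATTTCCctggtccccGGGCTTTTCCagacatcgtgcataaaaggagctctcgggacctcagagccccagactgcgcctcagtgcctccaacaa
Cxcl3: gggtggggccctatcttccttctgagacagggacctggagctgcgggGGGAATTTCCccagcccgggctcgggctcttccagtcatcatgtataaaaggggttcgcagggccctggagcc

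Cxcl1 held matches starting at -89, on the minus strand, and at -71 from its start site, Cxcl2 at -97 and -78, and Cxcl3 at -73. The string GGGAATTTCC stood in all of these stretches. RefSeq gave promoter windows, 250 bases before to 50 after the start, for 45 of the 60 genes and for 19 of the 25 that rose in WT. The NF-kB letters stood in 4 of those 19 genes (Ccl9, Cxcl1, Cxcl2 and Cxcl3), in 6 of the 45, and in 1.629% of all 32851 promoter windows. Of the neighbours of Cxcl1 to Cxcl3, Cxcl15 held no match in its window and Cxcl5 had no window. For comparison the AP-1 letters TGANTCA, which read the same on both strands, stood in 1 of the 19 genes (Ccl9). They stood in 8 of the 45 genes and in 7.808% of all windows. The interferon response letters, TTTC and TTTC with any 2 bases between, stood in 2 of the 19 (Ccl19 and Cxcl14). They stood in 3 of the 45 genes and in 3.443% of all windows. The direct repeat of AGNTCA with any 3 bases between, a form of the vitamin D receptor element searched on both strands like the others, stood in none of the 45 and in 0.07% of all windows. A gene was counted if any of its windows matched, and the 45 genes had 52 windows. The percentages are of windows, so they are not like for like with the gene counts. A match is a description of letters only.

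Cxcl5, a Cxcr2 ligand made by epithelium and stroma, was 1.30 and 1.63 CPM in Tet2KO_VitD against 0.368 and 0.223 CPM in Tet2KO_vehicle, and 2.65 and 9.79 CPM in WT_VitD against 0.186 and 0.114 CPM in WT_vehicle. Both WT_VitD libraries were above every other library, and the Tet2KO_VitD libraries were both above all vehicle libraries. The log2 difference was 2.30 (SE 0.733, adjusted p = 0.261) in Tet2KO and 5.32 (SE 0.799, adjusted p = 0.00745) in WT. Cxcl3, a close relative of Cxcl2, had 20 and 24 counts in Tet2KO_VitD and 22 and 49 counts in WT_VitD, and no count in any vehicle library. Against a floor of 3 counts over the vehicle group it was at least 12.9-fold higher in Tet2KO and at least 24.3-fold higher in WT, where it rose (adjusted p = 0.0106), while it was not called in Tet2KO by edgeR (DESeq2 adjusted p = 0.00557).

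Cxcl1, the main neutrophil attractant of the mouse, was 6.34 and 8.27 CPM in Tet2KO_VitD against 2.76 and 2.29 CPM in Tet2KO_vehicle, and 10.3 and 14.5 CPM in WT_VitD against 2.05 and 0.797 CPM in WT_vehicle. The VitD libraries did not overlap with the vehicle libraries in either genotype, and the log2 difference was 1.53 (SE 0.421, adjusted p = 0.204) in Tet2KO and 3.13 (SE 0.450, adjusted p = 0.00667) in WT. Cxcl2, which macrophages release early in inflammation, was 1.93 and 1.85 CPM in Tet2KO_VitD against 0.368 and 0.447 CPM in Tet2KO_vehicle, and 1.32 and 6.17 CPM in WT_VitD against 0.249 and 0.114 CPM in WT_vehicle. Its log2 difference was 2.19 (SE 0.759, adjusted p = 0.292) in Tet2KO and 4.34 (SE 0.845, adjusted p = 0.0148) in WT, and the groups of neither genotype overlapped. Cxcr2, the receptor of these ligands, was 2.61 and 1.80 CPM in Tet2KO_VitD against 0.368 and 0.279 CPM in Tet2KO_vehicle, and 3.44 and 7.19 CPM in WT_VitD against 0.373 and 0.171 CPM in WT_vehicle. All 4 VitD libraries exceeded all vehicle libraries, with log2 differences of 2.74 (SE 0.601, adjusted p = 0.127) in Tet2KO and 4.27 (SE 0.618, adjusted p = 0.00667) in WT. Of the 6 tested neutrophil markers of a list of 8, 4 rose in WT. In Tet2KO edgeR, DESeq2 and limma voom each called 0 of them, and their log2 differences ran from -1.40 to 2.85. The markers summed to 29.2 and 17.1 CPM in Tet2KO_VitD against 15.2 and 9.27 CPM in Tet2KO_vehicle, and to 41.5 and 75.1 CPM in WT_VitD against 10.01 and 4.33 CPM in WT_vehicle. Ly6g had 6 counts in all, with 0 in 5 libraries. In bulk tissue, fewer cells of a type and less RNA per cell cannot be told apart, and the part of neutrophil number in these values was not tested.

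Monocyte chemokines bind Ccr2 or Cx3cr1 on blood monocytes. All 4 monocyte ligands and both receptors rose in WT_VitD against WT_vehicle. Ccl2, which calls Ccr2-bearing monocytes out of bone marrow and blood, was 11.9 and 9.33 CPM in Tet2KO_VitD against 1.10 and 1.51 CPM in Tet2KO_vehicle, and 14.0 and 24.5 CPM in WT_VitD against 0.808 and 0.797 CPM in WT_vehicle. Every VitD library exceeded every vehicle library. The log2 difference was 3.01 (SE 0.367, adjusted p = 0.0236) in Tet2KO and 4.57 (SE 0.395, adjusted p = 0.00203) in WT, and Ccl2 was called in both genotypes. Ccl7, another Ccr2 ligand, was 8.26 and 15.9 CPM in Tet2KO_VitD against 3.99 and 3.91 CPM in Tet2KO_vehicle, and 19.3 and 21.8 CPM in WT_VitD against 3.05 and 0.627 CPM in WT_vehicle, with a log2 difference of 1.62 (SE 0.545, adjusted p = 0.281) in Tet2KO and 3.49 (SE 0.594, adjusted p = 0.0107) in WT. Ccl12, a Ccr2 ligand of rodents, was 1.61 and 5.81 CPM in Tet2KO_VitD against 1.60 and 0.838 CPM in Tet2KO_vehicle, and 8.74 and 11.7 CPM in WT_VitD against 1.12 and 0.456 CPM in WT_vehicle. Both VitD groups lay above their vehicle groups, though 1 Tet2KO_VitD library only barely, with differences of 1.63 (SE 0.647, adjusted p = 0.336) in Tet2KO and 3.70 (SE 0.690, adjusted p = 0.0133) in WT, where it rose. Ccl2, Ccl7, Ccl12 and Ccl8 lie in 1 stretch of chromosome 11 (chr11:82035571-82305690) with Ccl11 and Ccl1, and in WT these 4 rose whereas Ccl11 was not called.

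Cx3cl1, the membrane-tethered ligand of Cx3cr1 on endothelium and smooth muscle, was 57.6 and 37.7 CPM in Tet2KO_VitD against 30.4 and 21.4 CPM in Tet2KO_vehicle, and 51.0 and 59.9 CPM in WT_VitD against 15.5 and 18.1 CPM in WT_vehicle. All VitD libraries exceeded all vehicle libraries, by 0.88 (SE 0.255, adjusted p = 0.228) on the log2 scale in Tet2KO and by 1.72 (SE 0.261, adjusted p = 0.00779) in WT. Ccr2, the receptor of inflammatory monocytes, was 34.04 and 31.6 CPM in Tet2KO_VitD against 10.1 and 8.82 CPM in Tet2KO_vehicle, and 41.4 and 86.4 CPM in WT_VitD against 8.08 and 6.32 CPM in WT_vehicle. Every VitD library exceeded every vehicle library, and the log2 difference was 1.79 (SE 0.327, adjusted p = 0.0811) in Tet2KO and 3.15 (SE 0.342, adjusted p = 0.00281) in WT. Cx3cr1, carried by patrolling monocytes and resident macrophages, was 2.86 and 6.95 CPM in Tet2KO_VitD against 6.08 and 5.25 CPM in Tet2KO_vehicle, and 6.95 and 14.2 CPM in WT_VitD against 1.49 and 2.39 CPM in WT_vehicle. The Tet2KO groups overlapped, with a log2 difference of -0.19 (SE 0.487, adjusted p = 0.872) that was 0.31 without Tet2KO_VitD replicate 1, and the WT groups did not, with a rise of 2.44 (SE 0.520, adjusted p = 0.0190). The genotype by VitD interaction was -2.63 (SE 0.708, adjusted p = 0.794) and was not called. Of the 3 monocyte markers (Ly6c2, Chil3 and Plac8), 2 (Chil3 and Plac8) rose in Tet2KO and all 3 in WT, and they summed to 146 and 56.2 CPM in Tet2KO_VitD against 11.1 and 13.2 CPM in Tet2KO_vehicle, and to 133 and 204 CPM in WT_VitD against 8.02 and 6.10 CPM in WT_vehicle; their part in the chemokine values was not tested.

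**Figure D3:**
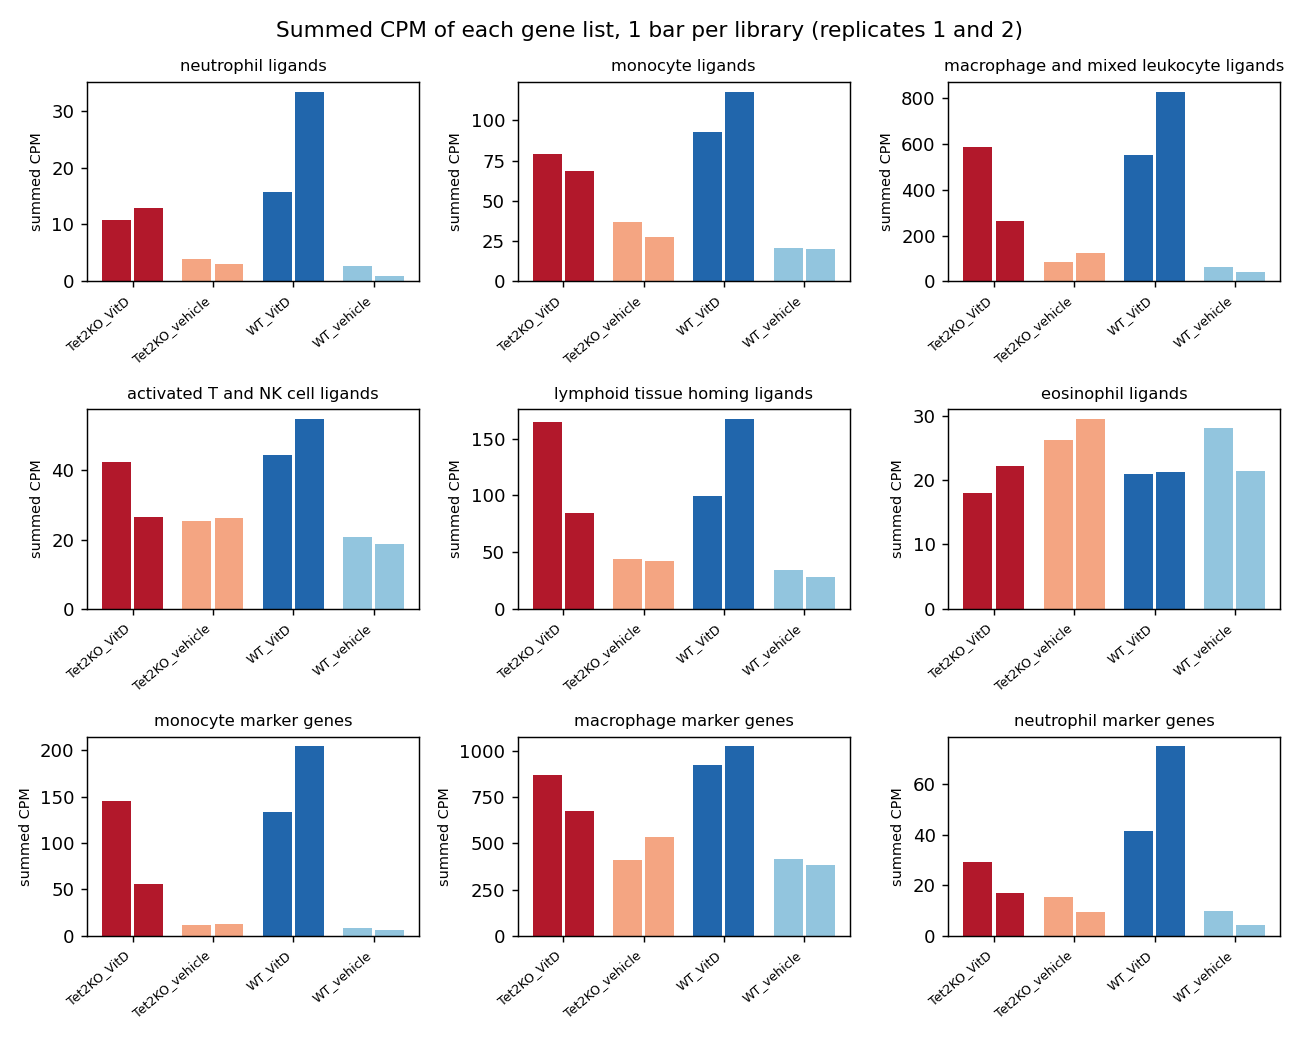
Summed CPM of 6 ligand groups and of the monocyte, macrophage and neutrophil markers, 1 bar per library (replicates 1 and 2), groups along the horizontal axis. The monocyte and neutrophil ligand sums are higher in each VitD library than in each vehicle library of the same genotype, as are those of the 3 marker lists, whereas eosinophil ligands are not higher in either genotype.

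Macrophage and mixed leukocyte chemokines bind receptors such as Ccr1. In WT, 4 of their 5 ligands rose, and all 5 had positive differences in both genotypes, with a median log2 of 1.85 in Tet2KO and 3.21 in WT. Ccl6 and Ccl9, which rodents make in large amounts in macrophages and neutrophils, were the most abundant of these. Ccl6 was 383 and 149 CPM in Tet2KO_VitD against 43.0 and 57.8 CPM in Tet2KO_vehicle, and 361 and 502 CPM in WT_VitD against 26.2 and 21.1 CPM in WT_vehicle. The VitD and vehicle libraries did not overlap, and the log2 difference was 2.40 (SE 0.416, adjusted p = 0.0736) in Tet2KO and 4.19 (SE 0.451, adjusted p = 0.00281) in WT. Ccl9 was 199.9 and 112 CPM in Tet2KO_VitD against 42.3 and 65.2 CPM in Tet2KO_vehicle, and 186 and 319.9 CPM in WT_VitD against 36.7 and 18.1 CPM in WT_vehicle, with a log2 difference of 1.53 (SE 0.426, adjusted p = 0.204) in Tet2KO and 3.21 (SE 0.455, adjusted p = 0.00645) in WT.

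Ccl3, a ligand of Ccr1 that attracts macrophages and T cells, was 1.43 and 0.308 CPM in Tet2KO_VitD against 0.307 and 0.112 CPM in Tet2KO_vehicle, and 0.728 and 1.64 CPM in WT_VitD against 0.0622 and 0.0570 CPM in WT_vehicle. It had 40 counts in WT_VitD and 2 counts in WT_vehicle, a count ratio of 20.5 (95% exact Clopper-Pearson interval 5.32 to 175, counting error only), and its fitted log2 difference was 1.995 (SE 0.936, adjusted p = 0.398) in Tet2KO and 4.17 (SE 1.11, adjusted p = 0.0328) in WT. Ccl4 had 17 and 2 counts in these WT groups, a ratio of 8.73 (2.07 to 77.9), and was not called in WT (log2 2.94, adjusted p = 0.0749). Ccl5, made by T cells and macrophages, was 1.55 and 1.28 CPM in Tet2KO_VitD against 0.798 and 1.73 CPM in Tet2KO_vehicle, and 4.24 and 3.34 CPM in WT_VitD against 0.559 and 0.911 CPM in WT_vehicle. The Tet2KO groups overlapped, at 0.15 (SE 0.510, adjusted p = 0.908), and the WT groups did not, with a rise of 2.35 (SE 0.527, adjusted p = 0.0210). Ccr1, a receptor for Ccl3, Ccl5, Ccl6 and Ccl9, was 19.9 and 14.3 CPM in Tet2KO_VitD against 3.13 and 2.01 CPM in Tet2KO_vehicle, and 19.1 and 38.8 CPM in WT_VitD against 1.55 and 0.854 CPM in WT_vehicle, with a log2 difference of 2.73 (SE 0.432, adjusted p = 0.0524) in Tet2KO and 4.59 (SE 0.477, adjusted p = 0.00273) in WT. Of 7 macrophage markers, edgeR called 0 in Tet2KO, where 5 had an unadjusted p under 0.05, DESeq2 called 3 and limma voom called 0. In WT 6 rose. Mertk went the other way there, at 98.1 and 82.3 CPM in WT_VitD against 184 and 128 CPM in WT_vehicle (log2 -0.79), and was not called. The 7 markers summed to 871 and 675 CPM in Tet2KO_VitD against 411 and 537 CPM in Tet2KO_vehicle, and to 927 and 1027 CPM in WT_VitD against 413 and 383 CPM in WT_vehicle. Their part in the chemokine values was not tested.

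Chemokines of lymphoid tissue and progenitors are made by stroma to place lymphocytes and stem cells. Cxcl12, the ligand of Cxcr4 that retains progenitors and attracts many leukocytes, was 435 and 486 CPM in Tet2KO_VitD against 219.9 and 192 CPM in Tet2KO_vehicle, and 731 and 944 CPM in WT_VitD against 166 and 196 CPM in WT_vehicle. It made up 31.5% and 47.0% of ligand reads in Tet2KO_VitD, 44.1% and 39.5% in Tet2KO_vehicle, 44.5% and 40.9% in WT_VitD and 44.8% and 55.3% in WT_vehicle. Its level in VitD libraries was above that of all vehicle libraries in both genotypes, with log2 differences of 1.16 (SE 0.220, adjusted p = 0.0886) in Tet2KO and 2.21 (SE 0.227, adjusted p = 0.00273) in WT. Cxcl14, a homeostatic chemokine of epithelium and fibroblasts, was 11.7 and 12.1 CPM in Tet2KO_VitD against 1.72 and 1.90 CPM in Tet2KO_vehicle, and 19.3 and 57.3 CPM in WT_VitD against 2.24 and 1.94 CPM in WT_vehicle. Its log2 difference was 2.71 (SE 0.479, adjusted p = 0.0764) in Tet2KO and 4.20 (SE 0.492, adjusted p = 0.00330) in WT, where it was called whichever library was left out. Cxcr4, the receptor of Cxcl12, was 10.2 and 6.38 CPM in Tet2KO_VitD against 4.30 and 5.70 CPM in Tet2KO_vehicle, and 11.1 and 11.3 CPM in WT_VitD against 6.53 and 4.56 CPM in WT_vehicle, and was not called in either genotype by edgeR, with 0.72 (SE 0.326, adjusted p = 0.386) in Tet2KO and 1.01 (SE 0.326, adjusted p = 0.0571) in WT. DESeq2 (adjusted p = 0.0370) and limma voom (adjusted p = 0.0277) called it higher in WT.

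Cxcl13, which draws B cells into follicles through Cxcr5, was 139 and 31.7 CPM in Tet2KO_VitD against 2.76 and 3.13 CPM in Tet2KO_vehicle, and 63.7 and 119 CPM in WT_VitD against 1.06 and 1.37 CPM in WT_vehicle. All 4 VitD libraries were far above all 4 vehicle libraries, and the Tet2KO_VitD libraries lay widely apart. The log2 difference was 4.85 (SE 0.681, adjusted p = 0.0417) in Tet2KO and 6.22 (SE 0.751, adjusted p = 0.00360) in WT, and Cxcl13 was called in both genotypes. Cxcr5 was 3.04 and 2.38 CPM in Tet2KO_VitD against 2.15 and 2.68 CPM in Tet2KO_vehicle, and 2.71 and 3.74 CPM in WT_VitD against 2.05 and 1.77 CPM in WT_vehicle, and was not called in either genotype. Ccl19, a stromal ligand of Ccr7 on T cells and dendritic cells, was 5.22 and 6.77 CPM in Tet2KO_VitD against 2.39 and 2.57 CPM in Tet2KO_vehicle, and 10.2 and 19.0 CPM in WT_VitD against 4.60 and 1.77 CPM in WT_vehicle. Neither genotype showed overlap, at 1.27 (SE 0.476, adjusted p = 0.311) in Tet2KO and 2.20 (SE 0.475, adjusted p = 0.0193) in WT, where it rose. Ccl21a, the other Ccr7 ligand, whose near-identical copies make the counts uncertain, was 17.1 and 41.8 CPM in Tet2KO_VitD against 34.2 and 31.7 CPM in Tet2KO_vehicle, and 21.3 and 24.3 CPM in WT_VitD against 22.0 and 20.2 CPM in WT_vehicle. The Tet2KO_VitD libraries lay on either side of the Tet2KO_vehicle libraries, and it was not called in either genotype, with a log2 difference in Tet2KO of -0.15 that was 0.36 without Tet2KO_VitD replicate 1 and -0.94 without replicate 2. Ccr7 was not called, with a log2 of 0.23 in Tet2KO and 0.82 in WT. Ccl25, a thymic and gut ligand of Ccr9, was not called either. Ccr9 was 0.0621 and 0.484 CPM in Tet2KO_VitD against 1.10 and 2.68 CPM in Tet2KO_vehicle, and 0.265 and 0 CPM in WT_VitD against 6.96 and 0.399 CPM in WT_vehicle. WT_vehicle replicate 1 stood far above the other WT libraries, and the log2 difference in WT was -4.80 (SE 1.55, adjusted p = 0.0574), not called by edgeR, while DESeq2 called it lower (adjusted p = 0.00183). The 4 thymocyte markers summed to 52.5 CPM in that library and to 0.0440 to 13.0 CPM in the others, and their part in the Ccr9 value was not tested.

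Of the 8 tested ligands for activated, type 2, regulatory or barrier T cells, 3 rose in WT and 1 fell. Cxcl16, a membrane-bound ligand of Cxcr6, was 36.1 and 21.9 CPM in Tet2KO_VitD against 19.6 and 21.3 CPM in Tet2KO_vehicle, and 41.0 and 51.1 CPM in WT_VitD against 16.5 and 13.5 CPM in WT_vehicle. The Tet2KO groups came close without overlapping, at 0.50 (SE 0.257, adjusted p = 0.425), and the WT groups were well apart, with a rise of 1.62 (SE 0.263, adjusted p = 0.00966). Of its annotated sequence, 18.3% of the exon length overlaps Zmynd15 on the other strand, so its count is uncertain where the strand setting is not known. Cxcr6 itself was 0.994 and 0.792 CPM in Tet2KO_VitD against 0.307 and 0.614 CPM in Tet2KO_vehicle, and 0.860 and 1.13 CPM in WT_VitD against 0.622 and 0.627 CPM in WT_vehicle, and was not called. Cxcr3, the receptor of the interferon-induced ligands on activated T and NK cells, was 0.870 and 0.528 CPM in Tet2KO_VitD against 0.491 and 0.447 CPM in Tet2KO_vehicle, and 1.19 and 1.30 CPM in WT_VitD against 0.249 and 0.285 CPM in WT_vehicle, with a log2 difference of 0.55 (SE 0.576, adjusted p = 0.671) in Tet2KO and a rise of 2.19 (SE 0.601, adjusted p = 0.0363) in WT. Its ligand Cxcl9 was 0.497 and 1.85 CPM in Tet2KO_VitD against 3.56 and 3.13 CPM in Tet2KO_vehicle, and 2.25 and 1.13 CPM in WT_VitD against 3.23 and 2.91 CPM in WT_vehicle. All 4 VitD libraries were below all 4 vehicle libraries, but it was not called, at a log2 difference of -1.47 in Tet2KO and -0.86 in WT. Cxcl10, another Cxcr3 ligand, was 5.71 and 2.51 CPM in Tet2KO_VitD against 2.02 and 1.73 CPM in Tet2KO_vehicle, and 1.19 and 2.72 CPM in WT_VitD against 0.870 and 1.65 CPM in WT_vehicle. It was not called either, at 1.12 in Tet2KO and 0.63 in WT.

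Ccl8, which attracts Ccr8-bearing type 2 T cells in the mouse, was 22.2 and 36.9 CPM in Tet2KO_VitD against 17.9 and 7.59 CPM in Tet2KO_vehicle, and 51.2 and 61.4 CPM in WT_VitD against 1.68 and 1.88 CPM in WT_vehicle. Among the 46 genes it had the largest log2 difference between the vehicle groups: both Tet2KO_vehicle libraries exceeded both WT_vehicle libraries, with a log2 difference of 2.83 (SE 0.446, adjusted p = 0.562). The VitD difference was 1.22 (SE 0.383, adjusted p = 0.253) in Tet2KO and 4.98 (SE 0.464, adjusted p = 0.00267) in WT. The interaction was -3.76 (SE 0.582, adjusted p = 0.655), with an unadjusted p of 0.000121, and was not called by edgeR; DESeq2 called it (adjusted p = 1.46e-07). Ccl17, a ligand of Ccr4 on type 2 and regulatory T cells, had 56 counts in Tet2KO_VitD and 1 count in Tet2KO_vehicle, a ratio of 49.3 (8.50 to 1983), and 102 counts in WT_VitD and 1 count in WT_vehicle, a ratio of 105 (18.4 to 4176). It was not called in Tet2KO (adjusted p = 0.0811) and rose in WT (adjusted p = 0.00724). Ccl22, the other ligand of Ccr4, was not called, and Ccr4 itself had 18 counts in all. Ccl27a, an epidermal ligand of Ccr10 whose near-identical copies make its counts uncertain, was 5.90 and 10.03 CPM in Tet2KO_VitD against 14.8 and 13.0 CPM in Tet2KO_vehicle, and 7.28 and 5.60 CPM in WT_VitD against 16.4 and 18.7 CPM in WT_vehicle. Its log2 difference was -0.80 (SE 0.293, adjusted p = 0.307) in Tet2KO and -1.45 (SE 0.298, adjusted p = 0.0171) in WT, where it was the 1 gene that fell. Ccr10 and Ccl28 were not called by edgeR, though limma voom called Ccr10 lower in WT (adjusted p = 0.0430) and DESeq2 called Ccl28 lower in Tet2KO (adjusted p = 0.01002), and Ccr8 had 1 count.

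Eosinophil ligands Ccl11 and Ccl24 were not called in either genotype, and Ccl26 had 1 count. Ccl11 was 12.4 and 19.2 CPM in Tet2KO_VitD against 21.5 and 26.0 CPM in Tet2KO_vehicle, and 17.1 and 15.8 CPM in WT_VitD against 25.7 and 14.8 CPM in WT_vehicle. The differences were -0.59 in Tet2KO and -0.29 in WT. Ccr3, their receptor, had 3 and 3 counts in Tet2KO_VitD, 14 and 7 counts in Tet2KO_vehicle, 7 and 17 counts in WT_VitD, and 0 and 5 counts in WT_vehicle. No gene of the 4 eosinophil markers passed the filter, and they summed to 0 to 1.42 CPM. The 4 atypical receptors, which scavenge chemokines, were not called in either genotype. Ackr3, which removes Cxcl12, was 80.7 and 80.9 CPM in Tet2KO_VitD against 133 and 111 CPM in Tet2KO_vehicle, and 107 and 107 CPM in WT_VitD against 79.4 and 109.5 CPM in WT_vehicle, with log2 differences of -0.59 in Tet2KO and 0.18 in WT. Ackr1, the Duffy antigen of venules and red cells, was 7.27 and 5.98 CPM in Tet2KO_VitD against 5.52 and 4.24 CPM in Tet2KO_vehicle, and 5.69 and 7.36 CPM in WT_VitD against 4.72 and 3.99 CPM in WT_vehicle, and 25.7% of its exon length overlaps Cadm3 on the same strand. Ackr2 and Ackr4 had log2 differences of -0.39 and -0.74 in Tet2KO, and of -0.95 and 0.57 in WT.

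**Figure D4:**
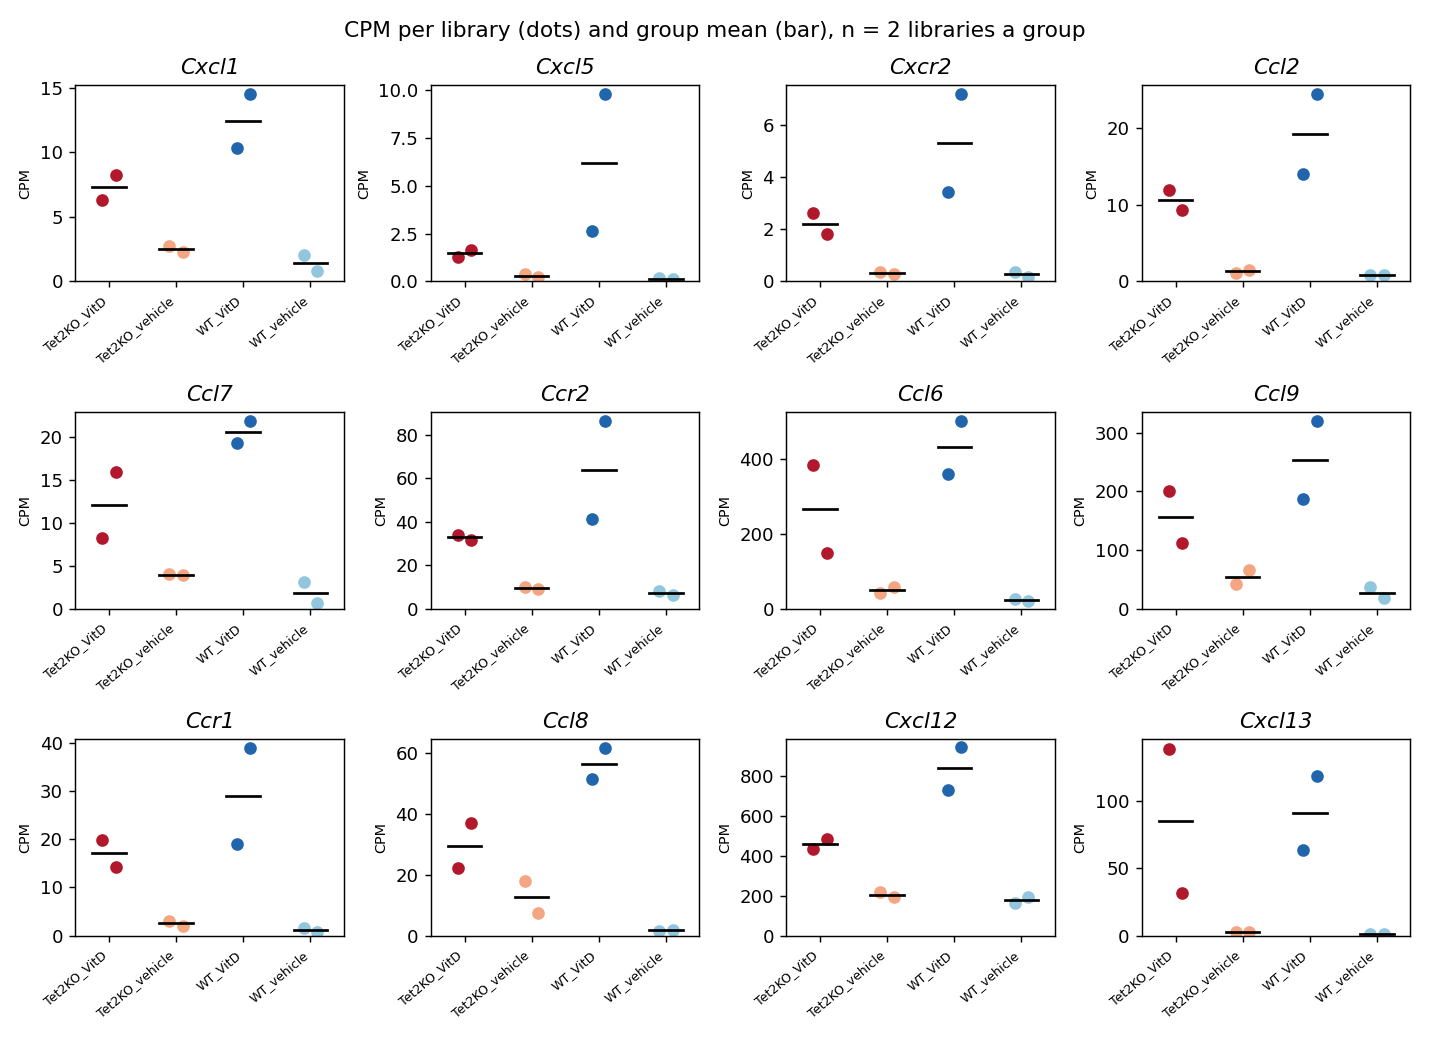
CPM of 12 chemokine and receptor genes, 1 panel per gene, with 1 dot per library and a bar at the mean of the 2 libraries of each group. The 12 genes were chosen among the 25 that rose in WT, so they do not stand for all tested genes. In each panel both VitD libraries lie above both vehicle libraries of the same genotype. Other genes of the 25, such as Ccl5 and Cx3cr1, overlapped between the Tet2KO groups. For Ccl8 both Tet2KO_vehicle libraries also lie above both WT_vehicle libraries.

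Levels per exon length allow a comparison between genes, for the 57 genes with a single GENCODE match. In mean CPM per kilobase (RPKM, SD, n = 2), Ccl6 was the highest ligand under VitD, at 148 ± 92.1 in Tet2KO_VitD against 28.1 ± 5.82 in Tet2KO_vehicle, and 240.4 ± 55.3 in WT_VitD against 13.2 ± 1.98 in WT_vehicle. Cxcl12 was 56.3 ± 4.43 in Tet2KO_VitD against 25.2 ± 2.41 in Tet2KO_vehicle, and 102 ± 18.4 in WT_VitD against 22.2 ± 2.60 in WT_vehicle. Ackr3 was the highest of these genes in both vehicle groups, at 36.5 ± 4.65 in Tet2KO_vehicle and 28.2 ± 6.37 in WT_vehicle. Under VitD, Cxcl13 was 74.2 ± 66.0 in Tet2KO_VitD and 79.3 ± 33.9 in WT_VitD.

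Genotype was compared next, in each treatment. Under VitD, and so in the interaction, genotype is partly mixed with the number range of the libraries. Of the VitD libraries only Tet2KO_VitD replicate 2 is in the lower range. Under VitD, 0 of the 46 genes were called between Tet2KO and WT, beside 0% of all genes, at a median log2 of -0.70 over the 46 genes and 0.03 over all genes. Of the 46 genes 11 had an unadjusted p under 0.05, all lower in Tet2KO, beside 10.6% of all genes in either direction. Both Tet2KO_VitD libraries were below both WT_VitD libraries for 20 genes, beside 21.6% of all genes, and above them for 1 (Ackr2), beside 22.2%. DESeq2 called 2 genes, Cxcl12 and Cxcl14, both lower, beside 0.343% of all genes, and limma voom called 0. The edgeR count rose without Tet2KO_VitD replicate 1 and without WT_VitD replicate 1, as did the number called over all genes. The log2 difference of Cxcl12 was -0.86 (SE 0.219, adjusted p = 0.457) and that of Ccl2 was -0.86 (SE 0.319, adjusted p = 0.467).

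Under vehicle, 0 of the 46 genes were called, beside 0% of all genes, at a median log2 of 0.58 over the 46 genes and 0.00 over all genes. Of the 46 genes, 6 had an unadjusted p under 0.05, all higher in Tet2KO, beside 2.97% of all genes. Both Tet2KO_vehicle libraries were above both WT_vehicle libraries for 25 genes, beside 14.3% of all genes, and below them for 3 (Ccl27a, Cxcl14 and Cxcr6), beside 15.5%. DESeq2 called 1 gene, Ccl8, which was higher, beside 0.0643% of all genes, and limma voom called 0. The log2 difference of Ccl6 was 1.09 (SE 0.405, adjusted p = 1) and that of Ccl9 was 0.98 (SE 0.426, adjusted p = 1). The interaction, the VitD difference in Tet2KO minus that in WT, had a median log2 of -1.07 over the 46 genes and 0.02 over all genes. It was called for 0 of the 46 genes, beside 0% of all genes, with 17 at an unadjusted p under 0.05, all negative, beside 6.21% of all genes. DESeq2 called 1 gene, Ccl8, beside 0.0643% of all genes, and limma voom called 0. The edgeR count rose without Tet2KO_VitD replicate 1, as did the number called over all genes. The comparisons share libraries, so their values are not independent of each other.

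**Figure D5:**
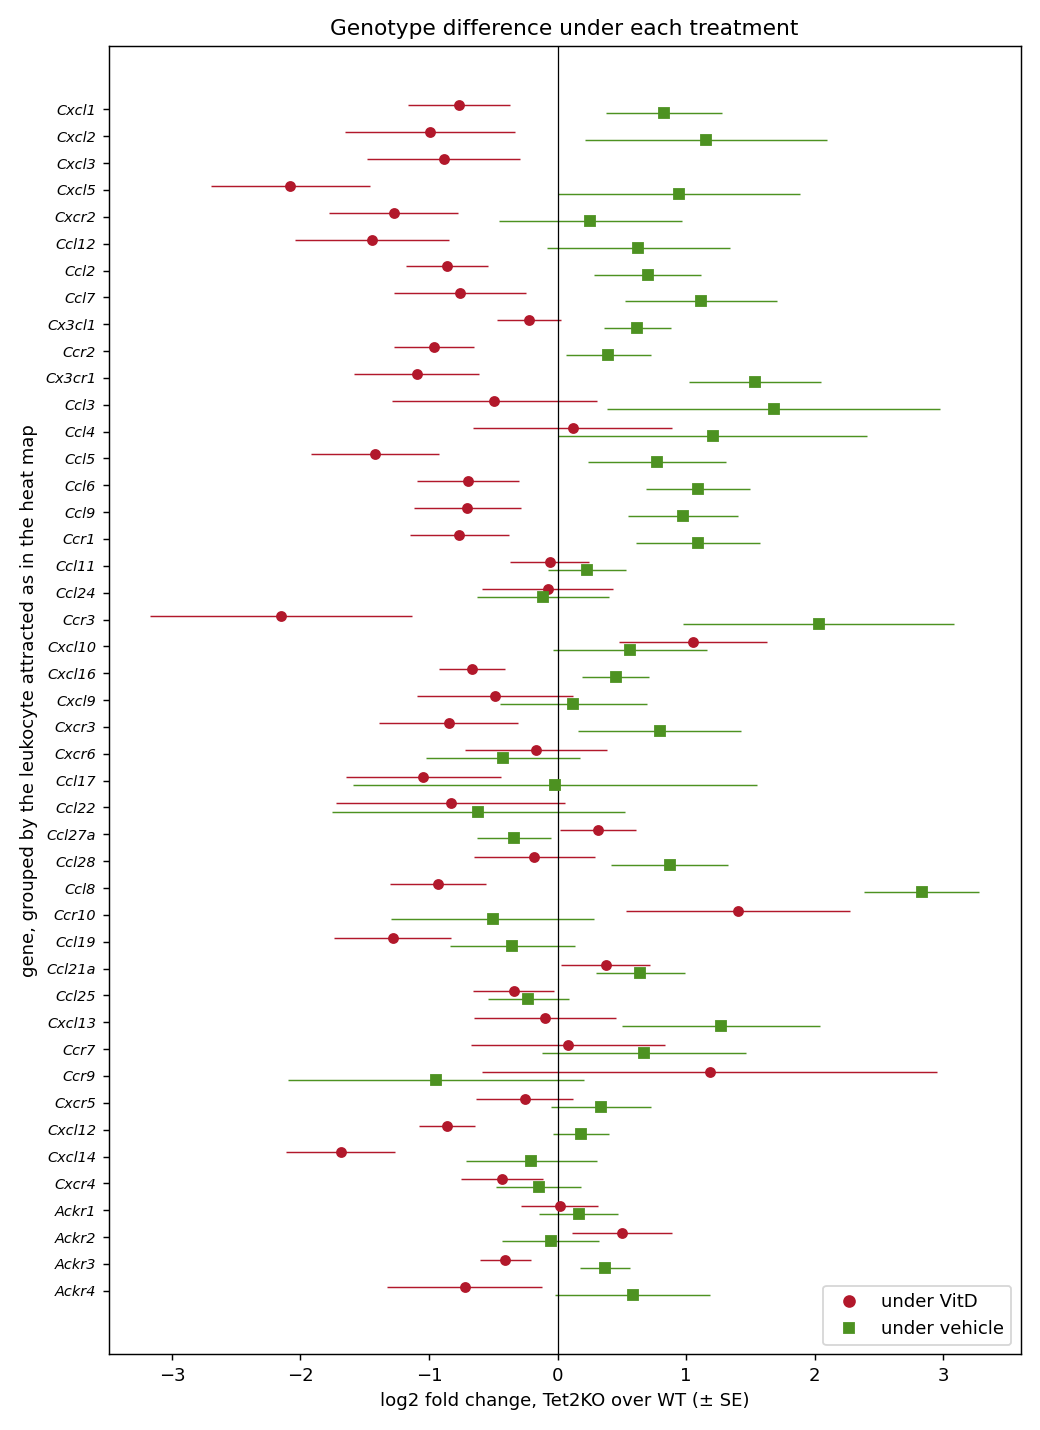
Log2 fold change of Tet2KO over WT, with standard errors, for 45 of the 46 tested genes, under VitD (circles) and under vehicle (squares, without Cxcl3, which had no vehicle count). Of the 45 circles 36 lie left of 0, and of the 44 squares 32 lie right of it, and no gene was called in either comparison.

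The genes around chemokine action were described from lists of pathway members. The counts in WT are to be read against 10.6% of all genes higher and 9.47% lower. In WT, 14 of 25 chemokine signalling genes rose and 1 fell, at a median log2 of 0.98, beside -0.03 for all genes. The kinase Fgr (log2 2.21, SE 0.387, adjusted p = 0.0117) and the oxidase subunit Ncf1 (log2 2.27, SE 0.361, adjusted p = 0.00906) were among those that rose. Of 13 leukocyte adhesion genes 8 rose, at a median of 1.29. Among them were the selectins Sele (log2 3.70, SE 0.798, adjusted p = 0.0194) and Selp (log2 2.73, SE 0.588, adjusted p = 0.0193), the integrin Itgam (log2 2.705, SE 0.283, adjusted p = 0.00273) and Vcam1 (log2 2.10, SE 0.331, adjusted p = 0.00894), which capture or arrest leukocytes on endothelium. The 5 endothelial markers summed to 4263 and 1241 CPM in Tet2KO_VitD against 1622 and 1770 CPM in Tet2KO_vehicle, and to 2672 and 2289 CPM in WT_VitD against 1416 and 1276 CPM in WT_vehicle. In WT edgeR called 0 of them, with 2 at an unadjusted p under 0.05, while DESeq2 and limma voom each called 2, and their part in the adhesion values was not tested. Of 14 tested chemoattractants and receptors outside the chemokine families 8 rose, at a median of 1.24, including the formyl peptide receptors Fpr1 (log2 3.30, SE 0.810, adjusted p = 0.0262) and Fpr2 (log2 2.66, SE 0.613, adjusted p = 0.0226), the leukotriene receptor Ltb4r1 (log2 2.61, SE 0.491, adjusted p = 0.0137) and the complement receptor C3ar1 (log2 2.42, SE 0.295, adjusted p = 0.00370). Of 10 tested inducers of chemokines 3 rose, Il6 (log2 7.16, SE 0.910, adjusted p = 0.00432), Il1b (log2 4.19, SE 0.540, adjusted p = 0.00444) and Irf7 (log2 2.36, SE 0.286, adjusted p = 0.00360), at a median of 0.34. In Tet2KO edgeR called 0 genes of these 4 lists, and limma voom called 0. At an unadjusted p under 0.05 there were 5 signalling genes, 7 adhesion genes, 6 other chemoattractants or receptors and 3 inducers, beside 13.3% of all genes, and DESeq2 called 1, 4, 1 and 2 in that order, beside 1.65%. The median log2 differences in Tet2KO were 0.41 for signalling, 0.70 for adhesion, 0.67 for the other chemoattractants and 0.32 for the inducers, beside -0.01 for all genes.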

How the data were processed

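RNA of the whole aortic tree was sequenced in 8 libraries, in 4 groups of 2 taken from the sample titles. The authors deposited 1 table of unnormalised read counts by gene symbol. Per the submitters' processing notes, the tools were Trimmomatic 0.39, STAR 2.7.8a and featureCounts 2.0.2, with the build mm10. Which annotation was used, whether counting used strand and how reads with several positions were treated is not stated in the labels or the file, so counts of near-identical copies and of overlapping genes are uncertain. Total counts ran from 15679274 to 22332149 per library.

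Counts were fitted with edgeR 4.0.16 in R 4.3.3 (TMM, filterByExpr, quasi-likelihood F test, 1 mean per group over all 8 libraries), without a covariate. P-values were adjusted by Benjamini-Hochberg over all 16194 genes tested, at a threshold of 0.05. SE is the log2 difference divided by the square root of F. Folds against a group with no count use a floor of 3 counts over the group, and these and the count intervals cover counting error only. Coordinates and exon lengths are from GENCODE M21, where 46378 of 48587 symbols matched exactly 1 gene, and promoter sequences are from RefSeq (GRCm38.p6). The fit was tested on simulated data. DESeq2 1.42.0, limma 3.58.1 (voom), other filters and scaling, a covariate, a replicate block and leaving out each library were the alternatives. The chemokine genes and all lists were chosen with earlier results of these data known. Values in every library are given for called genes with a group mean of at least 1 CPM and for their receptors or ligands, and up to 4 called genes are named per pathway list. A few genes that enter the fits and the counts are not reported here by name.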

Additional observations from a re-analysis of the deposited data

Results flagged for a closer look

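Ccr3, the receptor of the eotaxins, had VitD differences of opposite sign in the genotypes. It was 0.186 and 0.132 CPM in Tet2KO_VitD against 0.859 and 0.391 CPM in Tet2KO_vehicle, and 0.463 and 0.962 CPM in WT_VitD against 0 and 0.285 CPM in WT_vehicle, so both Tet2KO_VitD libraries were below both Tet2KO_vehicle libraries while both WT_VitD libraries were above both WT_vehicle libraries. The genotype by VitD interaction was -4.18 (SE 1.47, adjusted p = 0.794) on the log2 scale, with an unadjusted p of 0.0191. Ccr3 was picked for this pattern in the same libraries, so that p-value is no separate support for it. The share of all genes with such a pattern was not taken. It was not called by edgeR, DESeq2 or limma voom. The values rest on 0 to 17 counts per library. The interaction was -3.26 without WT_vehicle replicate 1 and -8.60 without WT_vehicle replicate 2. Groups of 2 libraries are too small to tell which library is outlying.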

How the results depend on the processing

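No called difference of a chemokine or receptor gene changed sign under any alternative run. Of those not called, the sign changed under at least 1 setting for 8 of 44 with VitD in Tet2KO and 10 of 20 in WT, for 17 of 46 between genotypes under VitD and 14 of 46 under vehicle, and for 14 of 46 in the interaction, none called in that setting. In WT the number of chemokine and receptor genes called with VitD was 26; it was 6 with the number range of the libraries in the model, between 25 and 30 under the other settings that kept all 8 libraries of the fit or the 4 libraries compared, and between 9 and 28 when 1 library was left out. In Tet2KO it was 2; it was 15 with DESeq2, 22 with no filter, 1 with that range in the model, 1 with the replicate block, 0 with limma voom, 0 with only the groups compared, and between 0 and 17 when 1 library was left out. For Tet2KO against WT under VitD it was 0; it was 2 with DESeq2, 7 with no filter, and between 0 and 4 when 1 library was left out. Under vehicle it was 0; it was 1 with DESeq2 and 5 with no filter. For the interaction it was 0; it was 1 with DESeq2, 9 with no filter, and between 0 and 1 when 1 library was left out. In WT the settings that gave 25 to 30 called 13.9% to 29.8% of all genes. With no filter, 4.37% of all genes were called in Tet2KO, 2.18% between genotypes under VitD, 0.586% under vehicle and 1.44% in the interaction. In Tet2KO the share was 0.124% with the number range in the model, 0.148% with the replicate block and 0.013% with only the groups compared. Where 1 library was left out, its partner is assumed to vary like the other groups. The labels do not say whether equal replicate numbers pair libraries. Deviations of same-numbered libraries from their group means correlated between -0.161 and 0.157, which shows no pairing but cannot exclude it. The replicate block gave 25 calls in WT. The cause of these shifts was not tested. With 2 libraries a group, depth limits the genes with few counts, such as Ccr3.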
